A study of Rattus norvegicus with 8 samples.

Results

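Cytochrome P450 enzymes of families 1 to 4 were followed in rat liver, as all probe sets of an Affymetrix array whose single annotated gene symbol places them in subfamilies from Cyp1a to Cyp4v. A probe set is the group of short probes that together measure 1 transcript. The rule gave 46 probe sets for 42 genes, out of 20826 probe sets with a single symbol for 14217 genes. All 46 probe sets matched a RefSeq gene. A further 4 probe sets carry several symbols that include such an enzyme and were not taken. Cyp2b1, Cyp2b2 and Cyp4a2 have no probe set with a single symbol and were not analysed here. Enzymes of 1 subfamily are close in sequence. Of the 46 probe sets, 3 have names that mark probes able to bind several transcripts, whether of 1 gene or of several. The name ends in _s_at for Cyp2c13, and in _a_at for Cyp2c6v1 and 1 of the 2 Cyp2j3 probe sets. How far paralogs share signal was not tested.

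The animals were male Sprague-Dawley rats, 8 weeks old at sampling. The hydrogen water group drank water with 0.7 mM dissolved hydrogen for 4 weeks, and the control group drank sterilized distilled water for the same time. Both groups had free access to the same commercial diet. The study had 8 rats in each group, and 4 liver arrays of each group were analysed. No label ties an array to an animal or speaks of pooling, so all p-values refer to the spread among arrays, which may be partly technical.

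Cytochrome P450s are heme enzymes of the endoplasmic reticulum that insert oxygen into their substrates with electrons from the reductase Por. Families 1 to 3 clear drugs, pollutants and steroids, and family 4 mainly hydroxylates fatty acids and eicosanoids. In the liver, hepatocytes make most of them. Dedicated receptors induce separate subfamilies, with AHR acting on Cyp1, CAR on Cyp2b, PXR on Cyp3a and PPAR alpha on Cyp4a. In the rat, the growth hormone rhythm keeps some forms high in males and others high in females.

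Most of these enzymes, like most probe sets on the arrays, gave small differences between the groups, and none passed the test. The difference was under 0.25 on the log2 scale in either direction at 25 of the 36 probe sets tested, against 11378 of all 15521. Of the 46 probe sets, 36 (32 genes) were bright enough to be tested, and 0 of the 36 passed the limma test at an adjusted p of 0.05. Over all 15521 probe sets tested, 128 passed (0.825%), of which 69 were higher in the hydrogen water group and 59 lower. At an unadjusted p under 0.05 there were 4 members, against 12.5% of all probe sets tested. Of these 4, Cyp4b1, Cyp2d4 and Cyp3a18 had higher means in the hydrogen water group (3 members, against 6.08% of all probe sets) and Cyp2c23 a lower one (1 member, against 6.46%). The 2 groups did not overlap at 1 member, Cyp4b1, against 7.48% of all probe sets tested in either direction and 3.85% higher in the hydrogen water group. The median difference, hydrogen water minus control, was 0.01 on the log2 scale over the 36 members and 0.00 over all probe sets tested, with 22 members above 0 and 14 below. The limma fit gave 95% intervals inside a change of 0.5 either way for 26 of the 36 members, and inside 1 for 31. Of all 15521 probe sets tested, 7753 had intervals inside 0.5 and 14249 inside 1. The 5 members whose intervals reached past 1 were probe sets of Cyp2c12, Cyp4a8 and Cyp4v3, which varied widely between arrays of 1 group.

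**Figure D1:**
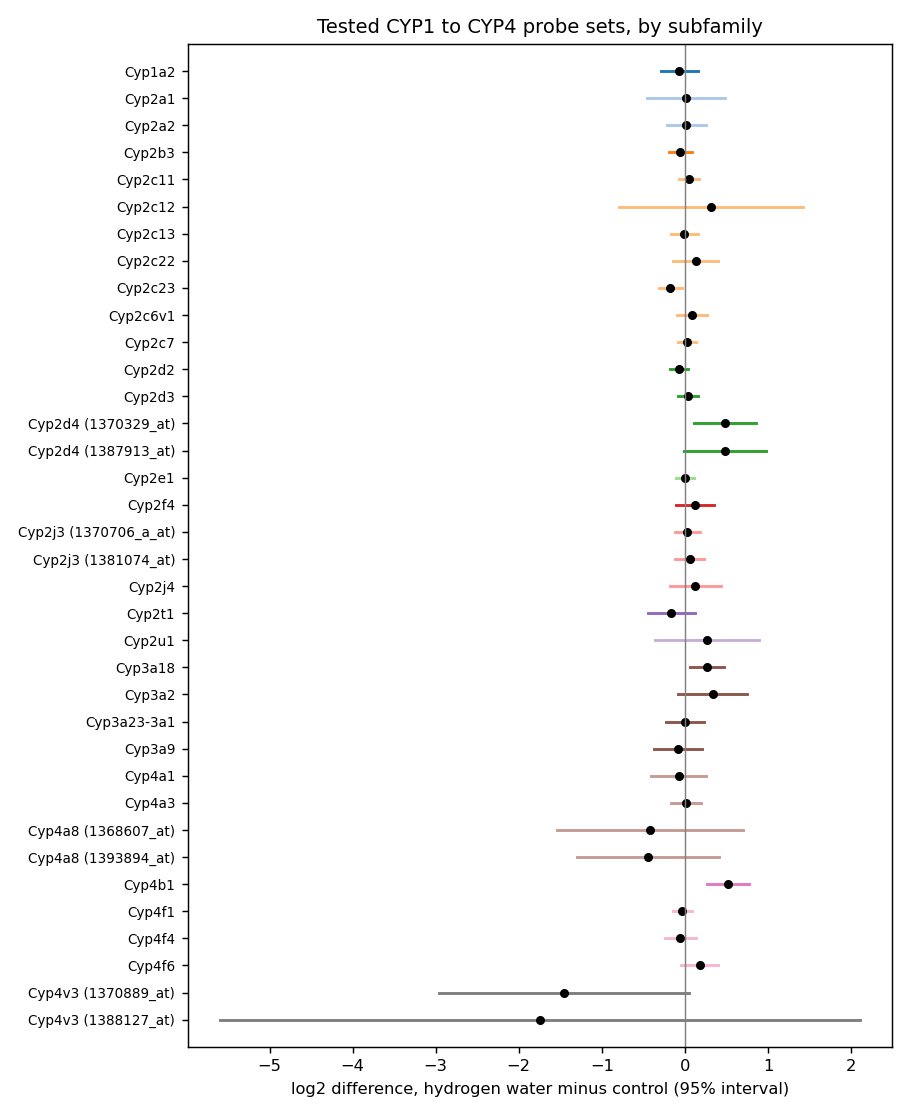
Difference between the hydrogen water and control groups (log2 units, x axis) for the 36 tested probe sets, by subfamily. Points are limma estimates from 4 arrays a group and bars their 95% intervals, and positive values mean higher in the hydrogen water group; the estimates run from -1.74 at Cyp4v3 to 0.52 at Cyp4b1.

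All signals given are after quantile normalization, which gives each array the same distribution of signals, so equal values mark equal ranks and a shift shared by most transcripts would not be seen. Differences are hydrogen water minus control on the scale of log2(signal + 2.05). As deposited, the arrays differed in brightness, with a trimmed mean signal of 91.4 ± 10.4 in the hydrogen water group against 115 ± 18.7 in the control group (SD, n = 4 each, exact two-sided permutation test, p = 0.114). The Gapdh 3′ to 5′ ratio, a sign of RNA quality, was 0.38 ± 0.08 in the hydrogen water group and 0.22 ± 0.10 in the control group on the log2 scale (SD, n = 4 each, exact two-sided permutation test, p = 0.0571). The mean log2 spike-in signal was 9.05 ± 0.08 in the hydrogen water group and 9.44 ± 0.30 in the control group. The median signal was 18.7 ± 1.5 and 23.0 ± 3.5 in the same order (SD, n = 4 each, exact two-sided permutation test, p = 0.0857 for both). None of these measures reached a p of 0.05, but a test on 4 arrays a group can miss a real difference. Without normalization, the median difference of all probe sets tested was -0.33 and that of the members -0.24, or 0.09 above it. The split of members above and below 0 moved with the scaling. It was 28 above and 8 below with each array scaled to its trimmed mean, and 30 above and 6 below with spike-in scaling. Median centring gave 24 above and 12 below, cyclic loess 23 and 13, and no normalization 5 and 31. The members' median lay 0.10 above that of all probe sets tested with median centring, trimmed mean and spike-in scaling. With cyclic loess it lay 0.03 above, and in the reported fit 0.01. In none of these did a member pass. The part of array brightness and RNA quality in the differences was not tested beyond these settings.

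Liver markers were as the tissue label says. Of 16 probe sets for hepatocyte markers such as albumin and transthyretin, 14 were tested and 1 passed, a probe set of Fga that fell by 0.45 ± 0.07 (SE, limma adjusted p = 0.0182). A second, brighter Fga probe set differed by -0.08 ± 0.04 (SE, limma adjusted p = 0.498). Summed hepatocyte marker signals ran from 100039 to 101544 in the hydrogen water group and from 98330 to 103755 in the control group. Summed endothelial marker signals ran from 3478 to 4118 in the hydrogen water group and from 3235 to 3504 in the control group. Of 9 tested endothelial probe sets, 0 passed. At an unadjusted limma p under 0.05, 3 were higher, against 6.08% of all probe sets tested. These were the probe sets of Lyve1 and Stab2, and the other tested endothelial probe sets differed by -0.16 (Vwf) to 0.13 (Fcgr2b). Sums for Kupffer, stellate, cholangiocyte, lymphocyte and erythroid markers overlapped between the groups, with 0 calls. In whole liver RNA, fewer cells of a type and less RNA per cell cannot be told apart.

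Among the enzymes that AHR induces, Cyp1a2, which oxidizes caffeine and aromatic amines, was abundant. Its signals were 2872, 3684, 3835 and 3332 on hydrogen water arrays 1 to 4 and 3212, 3353, 3835 and 3946 on control arrays 1 to 4. The groups overlapped, with a difference of -0.07 ± 0.10 (SE, 95% interval -0.29 to 0.15, limma adjusted p = 0.852). Cyp1a1, the strongest AHR target and low in uninduced liver, gave 1.27, 1.15, 1.08 and 2.21 in the hydrogen water group and 5.95, 3.63, 3.75 and 0.614 in the control group. Those signals lie far down the range of the array, and Cyp1a1 and Cyp1b1 were too dim to be tested.

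Cyp2b3, which unlike Cyp2b1 and Cyp2b2 is not known as an inducible form, was bright and differed by -0.05 ± 0.06 (SE, limma adjusted p = 0.801). The other Cyp2b members, Cyp2b12 and Cyp2b21, were too dim to be tested. Of the genes listed as CAR targets, Cyp2c6v1 was the 1 with a probe set, and it differed by 0.09 ± 0.08 (SE, limma adjusted p = 0.752).

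The Cyp3a enzymes, which PXR induces and which oxidize steroids and many drugs, were all bright. Cyp3a18, a male-predominant form, was 1 of the 4 members with an unadjusted p under 0.05. Its signals were 5023, 5668, 5859.9 and 5711 in the hydrogen water group and 5063, 4285, 3999 and 5307 in the control group. Arrays 2, 3 and 4 of the hydrogen water group lay above all control arrays, and array 1 lay inside the control range. The difference was 0.26 ± 0.09 (SE, 95% interval 0.06 to 0.47, limma adjusted p = 0.258). Cyp3a2, a male form that oxidizes testosterone, had signals of 6133, 6379, 6379 and 5803 in the hydrogen water group and 5122, 5924, 2980.2 and 6364 in the control group. Control array 3 stood well below the other 7 arrays. The difference was 0.33 ± 0.19 (SE, 95% interval -0.09 to 0.75, limma adjusted p = 0.537), and without control array 3 it was 0.09 (limma adjusted p = 0.730). Cyp3a23-3a1 and Cyp3a9 differed by 0.00 ± 0.10 and -0.08 ± 0.13 (SE). All 4 Cyp3a genes were on the PXR list, and 0 of 4 passed.

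The Cyp2c subfamily metabolizes steroids, arachidonic acid and drugs, and all 7 of its members were bright. The growth hormone pattern of the male sets Cyp2c11 high and Cyp2c12 low in rat liver. Onecut1 (HNF6), a hepatocyte transcription factor and known activator of rat Cyp2c12, was lower in the hydrogen water group, as described with the other regulators. For that reason the RefSeq promoters of the sex-dependent Cyp2c genes (assembly GRCr8) are shown, 5′ to 3′ on the gene's own strand. Each spans 300 bases, from 250 before the annotated start to 50 after it. Capitals mark ATTGAT, the core of Onecut1 sites, or its reverse complement. The female-predominant genes come first.
Cyp2c12: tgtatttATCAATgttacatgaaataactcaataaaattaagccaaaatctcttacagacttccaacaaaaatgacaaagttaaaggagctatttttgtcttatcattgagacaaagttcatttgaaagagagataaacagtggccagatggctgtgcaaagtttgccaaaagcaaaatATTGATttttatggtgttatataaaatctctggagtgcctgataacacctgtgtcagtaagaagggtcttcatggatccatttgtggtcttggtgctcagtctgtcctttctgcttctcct
Cyp2c7: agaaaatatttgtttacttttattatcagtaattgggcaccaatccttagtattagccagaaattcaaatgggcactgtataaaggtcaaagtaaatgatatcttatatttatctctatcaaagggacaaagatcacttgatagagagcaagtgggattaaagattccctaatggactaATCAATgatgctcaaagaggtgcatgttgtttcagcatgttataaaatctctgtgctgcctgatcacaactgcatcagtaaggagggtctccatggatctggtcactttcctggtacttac
Cyp2c13: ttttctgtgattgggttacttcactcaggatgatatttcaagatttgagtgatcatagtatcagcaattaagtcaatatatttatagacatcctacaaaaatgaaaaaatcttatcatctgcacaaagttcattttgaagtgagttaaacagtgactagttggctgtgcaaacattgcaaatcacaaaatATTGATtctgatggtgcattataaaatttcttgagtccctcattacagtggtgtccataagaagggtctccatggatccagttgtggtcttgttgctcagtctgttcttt
Cyp2c11: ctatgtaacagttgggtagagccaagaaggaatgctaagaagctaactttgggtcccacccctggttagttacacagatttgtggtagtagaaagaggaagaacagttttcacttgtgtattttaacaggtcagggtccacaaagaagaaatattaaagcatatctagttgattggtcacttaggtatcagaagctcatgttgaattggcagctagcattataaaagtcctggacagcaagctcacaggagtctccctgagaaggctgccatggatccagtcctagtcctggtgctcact
These lie at chr1:248676985-248677284 on the minus strand (Cyp2c12), chr1:247966144-247966443 on the plus strand (Cyp2c7), chr1:248787139-248787438 on the minus strand (Cyp2c13) and chr1:246174966-246175265 on the plus strand (Cyp2c11). The Cyp2c12 window holds 2 matches, 71 and 243 bases before the start. The Cyp2c7 window holds 1 at 71 bases and the Cyp2c13 window 1 at 60 bases, while the Cyp2c11 window holds 0. On both strands, ATTGAT was found in 5 of the 35 member promoters in the table (14.3%), those of Cyp1a2, Cyp2c7, Cyp2c12, Cyp2c13 and Cyp4f1, and in 8.06% of all 33469 promoters of that length. TTCNNNGAA, the STAT5 site, was found on both strands in 4 of 35 (11.4%) and in 8.87% of all promoters. TATAAA on the gene's strand was found in 9 of 35 (25.7%) and in 8.80% of all promoters. A match describes letters and does not show a bound site.

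Cyp2c11, the main male form, had signals of 6704, 6508, 6664 and 6448 in the hydrogen water group and 6508, 6609, 5834 and 6609 in the control group. The 8 arrays lay close together except for control array 3, which was lowest. The difference was 0.04 ± 0.05 (SE, 95% interval -0.08 to 0.16, limma adjusted p = 0.816). Cyp2c12, the main female form, had signals of 1609, 2415, 637 and 387 in the hydrogen water group and 589, 651, 1447 and 714 in the control group. Hydrogen water arrays 1 and 2 and control array 3 were high, and the control range lay inside that of the hydrogen water group. The difference was 0.32 ± 0.50 (SE, 95% interval -0.79 to 1.42, limma adjusted p = 0.863). Control array 3 had the highest Cyp2c12 signal of its group and the lowest Cyp2c11, Cyp3a2 and Cyp3a18 signals. The other sex-dependent genes did not follow. Among male-predominant forms, its signal was the highest of its group for Cyp2a2 (4159) and not the lowest for Cyp2c13 (4523). For the female-predominant Cyp2a1, Cyp2c7 and Cyp3a9 its signal was not the highest.

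Cyp2c23, an arachidonic acid epoxygenase, was the member with a lower mean and an unadjusted p under 0.05. Its signals were 5963, 5512, 5063 and 5367 in the hydrogen water group and 5803, 6133, 6508 and 6282 in the control group. The highest hydrogen water array overlapped the lowest control array, and the other 3 lay below all control arrays. The difference was -0.18 ± 0.06 (SE, 95% interval -0.31 to -0.04, limma adjusted p = 0.262). The other 4 Cyp2c members, Cyp2c6v1, Cyp2c7, Cyp2c13 and Cyp2c22, differed by -0.01 to 0.13.

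Read by sex dependence, 5 of 6 genes listed as male-predominant in rat liver were tested (Cyp2c11, Cyp2c13, Cyp2a2, Cyp3a2 and Cyp3a18), with a median difference of 0.04 and 0 passing. The 4 female-predominant genes (Cyp2c12, Cyp2c7, Cyp2a1 and Cyp3a9) had a median of 0.02, also with 0 passing. Both medians stand beside 0.00 over all probe sets tested. Cyp2a1 and Cyp2a2, testosterone hydroxylases, each differed by 0.01, and the related Cyp2a3 was too dim to be tested.

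**Figure D2:**
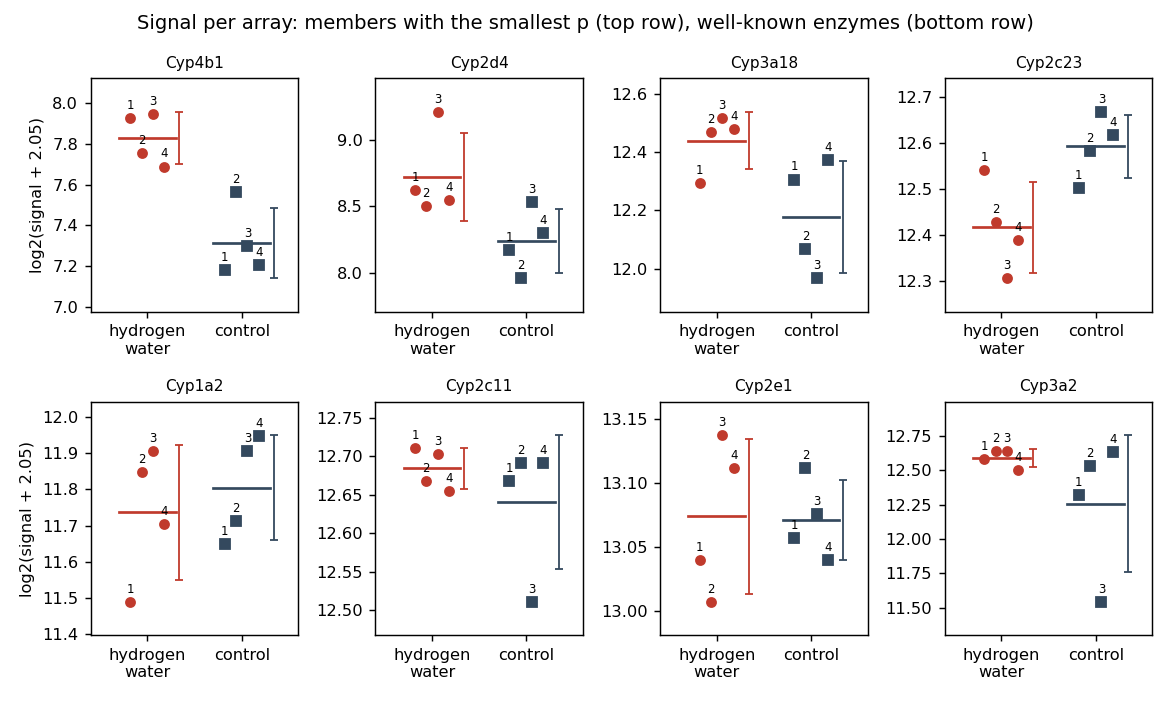
Log2 of the quantile-normalized signal plus 2.05 (y axes, each with its own range) on each array for 8 probe sets, hydrogen water left of control. Numbered points are arrays, lines group means and bars SD (n = 4 each); the top row holds the 4 members with an unadjusted p under 0.05, of which Cyp4b1 alone shows groups that do not overlap, and the bottom row holds Cyp1a2, Cyp2c11, Cyp2e1 and Cyp3a2.

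Cyp2d4, a form also known from rat brain, was the second member by size among those higher at an unadjusted p under 0.05. The brighter of its 2 probe sets gave 392, 361, 591 and 372 in the hydrogen water group and 287, 247, 369 and 313 in the control group. Array 3 was highest within each group, and hydrogen water array 2 lay just below control array 3. The difference was 0.48 ± 0.17 (SE, 95% interval 0.11 to 0.85, limma adjusted p = 0.262), and without hydrogen water array 3 it was 0.31 (limma adjusted p = 0.440). The other Cyp2d4 probe set gave the same difference with more spread, 0.48 ± 0.23 (SE, limma adjusted p = 0.419), which was as low as 0.24 when 1 array was left out. Cyp2d2, which oxidizes debrisoquine-type drugs, and Cyp2d3 differed by -0.07 ± 0.05 and 0.03 ± 0.06 (SE).

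Cyp2e1, the ethanol- and acetone-inducible form and a source of reactive oxygen, was the brightest member. Its signals were 8419.8, 8231, 9005 and 8849 in the hydrogen water group and 8519, 8849, 8634 and 8419.8 in the control group. The groups covered almost the same range, with a difference of 0.00 ± 0.05 (SE, 95% interval -0.10 to 0.11, limma adjusted p = 0.991). The epoxygenases Cyp2j3 (2 probe sets) and Cyp2j4 differed by 0.03 to 0.13. Cyp2f4, Cyp2t1 and Cyp2u1 differed by 0.12 ± 0.11, -0.16 ± 0.13 and 0.27 ± 0.29 (SE). Cyp2g1, Cyp2j10 and Cyp2s1 were too dim to be tested. Across the 10 untested members signals ran from 0.286 to 24.9, and in a fit without the filter their smallest limma adjusted p was 0.538, where 0.348% of all 31042 probe sets passed.

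Cyp4b1, a family 4 enzyme better known from lung, gave the smallest p of all members. Its signals were 242, 214, 245 and 204 in the hydrogen water group and 143, 187, 156 and 146 in the control group. Every hydrogen water array lay above every control array. The difference was 0.52 ± 0.12 (SE, 95% interval 0.26 to 0.77, 1.43-fold, limma adjusted p = 0.0723) and did not pass. Over the alternative settings the difference ran from 0.17 to 0.60 and the adjusted p from 0.0595 to 0.488.

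The Cyp4a enzymes are fatty acid omega-hydroxylases and classical PPAR alpha targets, and 0 of their 4 probe sets passed. Cyp4a1 signals were 4778, 4810.3, 3281 and 5642 in the hydrogen water group and 4172, 5512, 4332 and 5245 in the control group. Hydrogen water array 3 was the lowest and array 4 the highest of all 8, and the difference was -0.07 ± 0.15 (SE, 95% interval -0.41 to 0.26, limma adjusted p = 0.902). Cyp4a3 differed by 0.01 ± 0.08 (SE). Cyp4f enzymes hydroxylate leukotrienes and other eicosanoids. Of the tested ones, Cyp4f1, Cyp4f4 and Cyp4f6 differed by -0.03 ± 0.05, -0.05 ± 0.08 and 0.18 ± 0.10 (SE), and Cyp4f5 and Cyp4f17 were too dim to be tested.

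Cyp4v3, a fatty acid hydroxylase, and Cyp4a8 were chosen for their spread after the values were seen. The brighter Cyp4v3 probe set gave 754, 17.2, 12.7 and 1372 in the hydrogen water group and 13.8, 2018, 1065 and 1079.8 in the control group. Hydrogen water arrays 2 and 3 and control array 1 were low, and the other 5 arrays were far higher. The difference between the groups was -1.74 ± 1.75 (SE, 95% interval -5.60 to 2.11, limma adjusted p = 0.765), and it ran from -3.34 to -0.69 when 1 array was left out. The dimmer Cyp4v3 probe set was low on the same 3 arrays, with 53.6, 9.88, 8.28 and 57.8 in the hydrogen water group and 20.5, 151, 82.9 and 77.3 in the control group. Its difference was -1.46 ± 0.68 (SE, limma adjusted p = 0.419). The genes on either side of Cyp4v3 spanned narrower ranges. In the deposited signals, before normalization, the brighter Cyp4v3 probe set ran from 11.3 to 1382 in the hydrogen water group and from 17.3 to 1813 in the control group. Its neighbour Klkb1 ran from 1344 to 2696 in the hydrogen water group and from 2244 to 3162 in the control group. The 2 probe sets of Fam149a, on the other side, ran from 18.3 to 29.8 and from 43.7 to 63.7 in the hydrogen water group, and from 19.4 to 66.8 and from 49.5 to 74.1 in the control group.

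The brighter Cyp4a8 probe set gave 216, 41.6, 96.8 and 240.2 in the hydrogen water group and 196, 274, 153 and 85.0 in the control group. Hydrogen water array 2 was lowest at both Cyp4a8 probe sets, and control array 4 was the lowest of its group at both. The differences were -0.42 ± 0.51 and -0.44 ± 0.39 (SE).

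**Figure D3:**
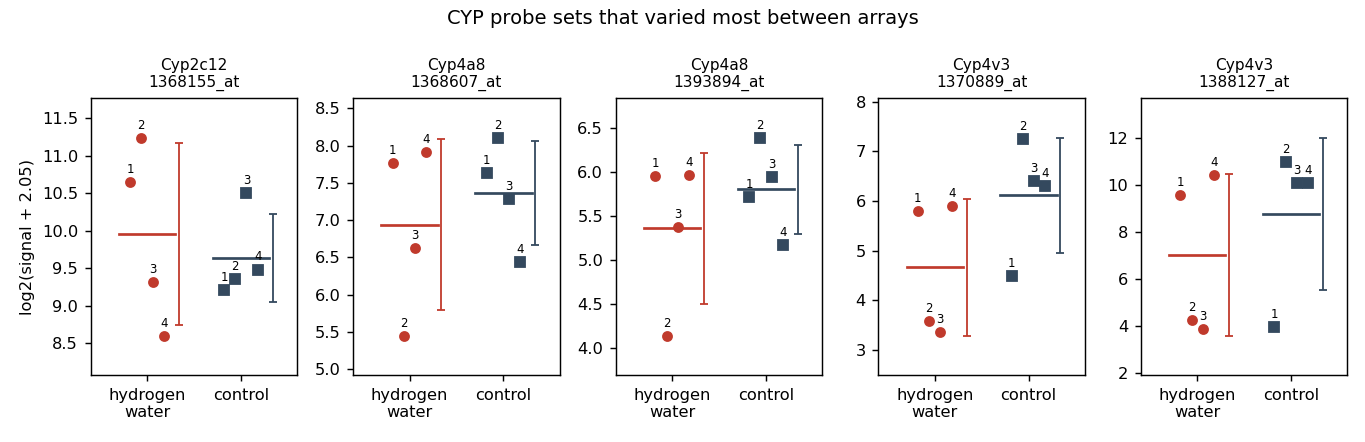
Log2 of the quantile-normalized signal plus 2.05 (y axes, each with its own range) on each array for the 5 most variable members, probe sets of Cyp2c12, Cyp4a8 and Cyp4v3, hydrogen water left of control. Numbered points are arrays, lines group means and bars SD (n = 4 each); both Cyp4v3 probe sets are low on hydrogen water arrays 2 and 3 and control array 1.

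Members ranged from among the steadiest to the most variable transcripts on the arrays. The residual SD, the spread of arrays around their group mean on the log2 scale, had a median of 0.16 over the 36 tested members and 0.22 over all probe sets tested. Spread falls as signal rises on these arrays, and 18 members lay in the top 1% of mean signal, from 2872 to 9005. Those 18 had a median residual SD of 0.120, against 0.0891 for the 310 brightest of all probe sets tested. Their differences lay between -0.18 and 0.33. The other 18 members had a median residual SD of 0.263. Whether signals are compressed at the top of the range was not tested. At the other end, 4 members stood among the 100 probe sets with the largest residual SD. The brighter Cyp4v3 probe set ranked 1 of 15521 with 3.33, and the next probe set had 2.81. The other Cyp4v3 probe set ranked 41, the brighter Cyp4a8 probe set 96 and Cyp2c12 97.

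**Figure D4:**
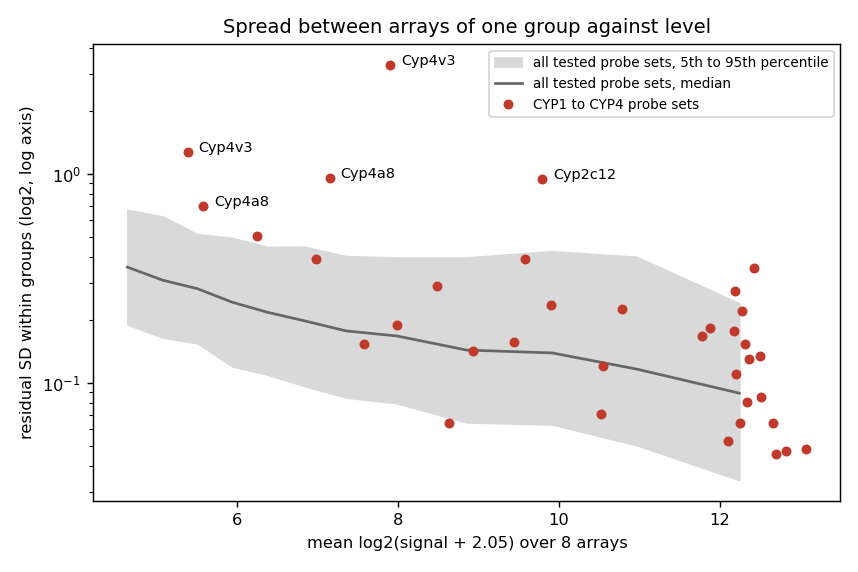
Residual SD within groups (log2 units, log axis) against mean log2 signal over 8 arrays. Red points are the 36 tested members, and the grey band and line show the 5th to 95th percentile and the median of all 15521 probe sets, drawn up to the mean of the brightest bin; most members to the left of the end of the band lie within it, while both probe sets of Cyp4v3, both of Cyp4a8 and those of Cyp2c12, Cyp2u1 and Cyp4a1 lie above it and 1 of Cyp2j3 lies below it.

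The proteins that supply electrons and heme to these enzymes, and the factors that control their genes, were read from the same fit. Of 58 tested probe sets (40 genes), 1 rose in the hydrogen water group and 2 fell, against the 0.825% of all probe sets that passed. At an unadjusted limma p under 0.05 there were 22 of 58 (9 higher, 13 lower), against 12.5% of all probe sets tested. The groups did not overlap at 13 of 58 (8 higher, 5 lower), against 7.48%. Genes with several probe sets, such as Cebpa, count more than once. Both lists were chosen with earlier results of these data known, so their shares cannot be read as enrichment. The count of probe sets that passed depended on single arrays. It was 0 when hydrogen water array 3 or 4, or control array 2 or 4, was left out. It was 1 when array 1 of either group was left out, 3 with hydrogen water array 2 left out and 4 with control array 3 left out.

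In the supply list of 19 tested probe sets, Alas1, which starts heme synthesis and sets its rate in liver, was the member that passed. Its signals were 1137, 1698, 829 and 941 in the hydrogen water group and 2299, 2198, 2074 and 1962 in the control group. All hydrogen water arrays lay below all control arrays, and Alas1 fell by 0.94 on the log2 scale (SE 0.18, limma adjusted p = 0.0405). The reductase Por had 2 probe sets, and neither passed. The first gave 959, 761, 840.2 and 813 in the hydrogen water group and 660.1, 675, 709.9 and 324 in the control group. The groups did not overlap, and control array 4 stood far below the rest at both Por probe sets. The differences were 0.57 ± 0.22 and 0.66 ± 0.27 (SE, limma adjusted p = 0.301 and 0.332). Cyb5b, an outer mitochondrial membrane cytochrome b5, differed by 0.41 ± 0.11 at 1 of its 2 probe sets (SE, limma adjusted p = 0.141). Pgrmc2, a heme-binding membrane protein, and Cpox, a heme synthesis enzyme, followed by p with -0.18 ± 0.11 and 0.16 ± 0.11 (SE). That Pgrmc2 value is from its probe set with the smallest p, and its other tested probe sets differed by -0.17 ± 0.14 and 0.09 ± 0.11 (SE).

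Among the regulators, 39 probe sets were tested, and 1 rose and 1 fell. Onecut1 had signals of 209.9, 171, 81.2 and 54.8 in the hydrogen water group and 448, 1218, 358 and 995 in the control group. Every hydrogen water array lay below every control array. The probe set fell by 2.54 on the log2 scale (SE 0.47, limma adjusted p = 0.0331), and a second Onecut1 probe set differed by -2.73 ± 0.57 (SE, limma adjusted p = 0.0578). Nr0b2 (SHP), a receptor without a DNA-binding domain that represses other nuclear receptors, had signals of 591, 858, 763 and 951 in the hydrogen water group and 312, 156, 506 and 255 in the control group. It rose by 1.46 on the log2 scale (SE 0.29, limma adjusted p = 0.0483).

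The next regulators by p did not pass. Foxa1, a liver pioneer factor, differed by -0.56 ± 0.13 (SE, limma adjusted p = 0.0689). Stat5b, which carries the growth hormone signal to the sex-dependent P450 genes, differed by 0.44 ± 0.11 and its relative Stat5a by 0.53 ± 0.15 (SE, limma adjusted p = 0.0863 and 0.145). Nr1i2 (PXR) gave 839.6, 745, 681 and 718 in the hydrogen water group and 472, 649, 596 and 532 in the control group, without overlap. Its difference was 0.41 ± 0.11 (SE, limma adjusted p = 0.123). The receptors behind the other induced subfamilies are given beside it, chosen after the values were seen. Nr1i3 (CAR) differed by 0.45 ± 0.13, the tested Ahr probe set by 0.55 ± 0.25 and Ppara by 0.58 ± 0.27 (SE), with limma adjusted p of 0.149, 0.410 and 0.420. The median over all 39 regulator probe sets was -0.02, with 19 above 0 and 20 below. At an unadjusted limma p under 0.05 there were 18 of them, against 12.5% of all probe sets tested. Of these 18, 6 were higher in the hydrogen water group and 12 lower. Cebpa, Onecut1 and Prlr each gave several of the 12, and the list was chosen with earlier results known.

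**Figure D5:**
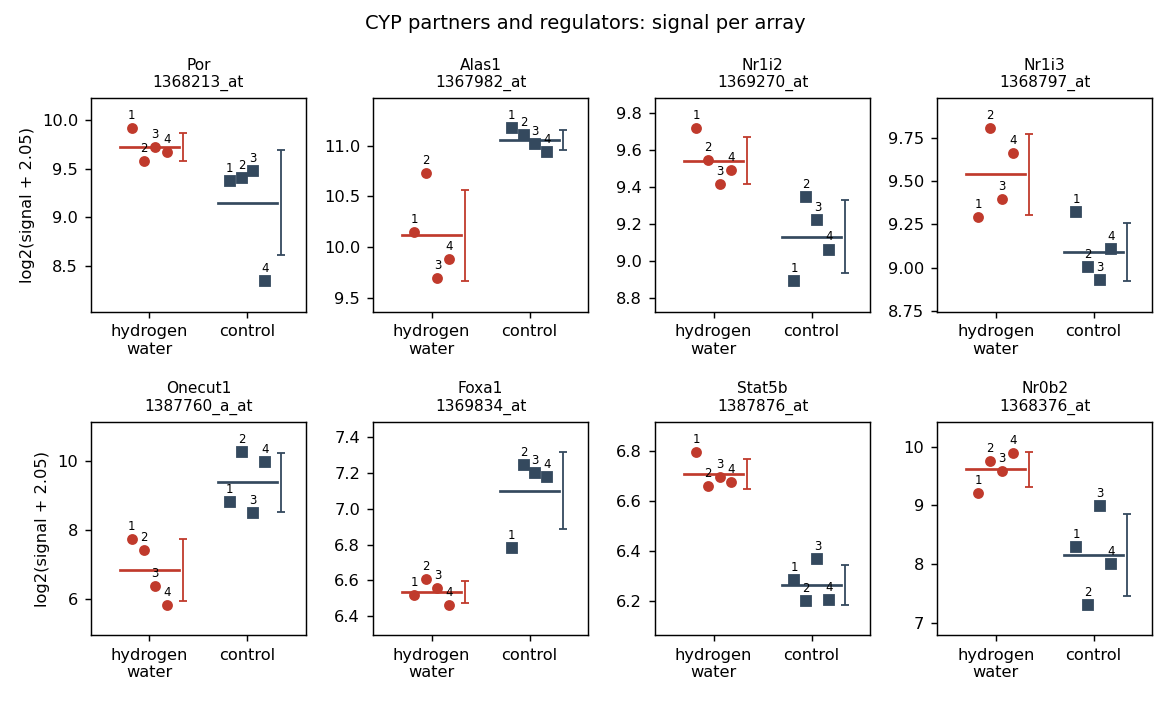
Log2 of the quantile-normalized signal plus 2.05 (y axes, each with its own range) on each array for Por, Alas1, Nr1i2, Nr1i3, Onecut1, Foxa1, Stat5b and Nr0b2, hydrogen water left of control. Numbered points are arrays, lines group means and bars SD (n = 4 each); Alas1, Onecut1 and Nr0b2 passed the limma test at an adjusted p of 0.05.

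Other P450 families, which make bile acids, steroids and vitamin D or break down retinoids, were set beside families 1 to 4. They had 16 genes, and of 8 tested probe sets 0 passed, against 0.825% of all probe sets tested. At an unadjusted limma p under 0.05 there were 2 of the 8, against 12.5% of all probe sets tested. Cyp17a1, a steroid hydroxylase, differed by -0.80 ± 0.23 and Cyp27a1, a sterol hydroxylase of mitochondria, by 0.17 ± 0.06 (SE, limma adjusted p = 0.160 and 0.217). Whether families 1 to 4 differ from them was not tested.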

How the data were processed

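Per the labels' protocols, biotin-labelled cRNA was made from rat liver RNA for Affymetrix arrays. The authors deposited linear intensities computed by MAS5, as the submitters' processing notes name it. MAS5 subtracts background and combines a probe set's probes into 1 signal. The sources used here give no version, scaling target or detection calls, so dim signals cannot be set apart from background. Array medians ran from 17.2 to 26.8, and the number of arrays, 8, limits the precision.

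The 31042 probe sets that are not controls (57 were left out) were quantile-normalized. Log2 was taken after adding 2.05 (10% of the median deposited value), which shrinks differences at dim probe sets. The 15521 probe sets with a mean at or above the median were fitted in limma 3.58.1 (R 4.3.3; lmFit, then eBayes with a trend), with Benjamini-Hochberg adjustment over all of them. SEs and 95% intervals come from this fit. Array measures were compared with exact two-sided permutation tests over 70 arrangements. The procedure was tested on simulated data, where it found 34% of 1.5-fold changes and 89.4% of 2-fold changes.

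Alternatives were 5 scalings, other pseudocounts and filters, no trend, array weights, a replicate block, array brightness as a covariate, a threshold of 0.10, gene means and leaving out each array.

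Symbols came from the platform annotation, checked by Entrez ID against RefSeq (GRCr8, 0 changed). Promoters are RefSeq's. Values per array are given for members at p under 0.05 and for 10 named enzymes where measured. Of the 2 lists of partners and regulators, genes that passed and up to 4 more by p are named, some with values per array. Cyp4v3, Cyp4a8 and the genes said to be chosen after their values were seen lie outside this rule. Other members are given by range or difference. The members, gene lists and settings were chosen with earlier results of these data known.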

Additional observations from a re-analysis of the deposited data

Results flagged for a closer look

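Within groups of 4 arrays, 1 array stood apart from the other 3 by Dixon's test (gap over range above its 95% critical value, both taken on the scale of log2(signal + 2.05)) in 7 of 72 groups of member values, where chance gives about 1 in 20. Signals are printed on the linear scale and the ratios come from the log2 values. The Cyp2c11 signal of control array 3 was 5834 against 6508 to 6609 on the others (gap over range 0.877 in log2). The Cyp2c13 signal of control array 1 was 5307 against 4500.4 to 4562 (0.918). The Cyp2c7 signal of hydrogen water array 2 was 7426 against 7207 to 7227 (0.907). Normalization puts such bright signals on shared steps, and Cyp2c7 on control array 1 also had 7426. As deposited, Cyp2c7 was 7084 on hydrogen water array 2 and 7214 on array 4. Deposited Cyp2c13 was 6221 on control array 1 and 4065 to 5501 on the others. How far these steps make the gaps was not tested. At the brighter Cyp2d4 probe set, hydrogen water array 3 had 591 against 361 to 392 (0.833). The Cyp2t1 signal of hydrogen water array 4 was 209.5 against 246 to 252 (0.876). The Cyp2u1 signal of hydrogen water array 1 was 49.7 against 92.7 to 98.9 (0.905). At the brighter Cyp4v3 probe set, control array 1 had 13.8 against 1065 to 2018 (0.868).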

How the results depend on the processing

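The count of members passing was 0 in 22 of 23 alternatives and 1 at a threshold of 0.10 (Cyp4b1). Members at an unadjusted limma p under 0.05 numbered from 2 (no trend in the prior) to 11 (spike-in scaling), and 3 to 7 when 1 array was left out. Counts over all probe sets, 128 in the reported fit, were 505 without normalization, 64 without a trend, 12 with array brightness as a covariate, 353 at a threshold of 0.10, 78 with gene means and 55 to 197 leaving out 1 array. Partner and regulator counts, 3 in the reported fit, were 9 without normalization, 1 under the stricter filter on dim probe sets, 0 without a trend, 6 at a threshold of 0.10 and 0 to 4 leaving out 1 array. Other P450 families had 1 call without normalization. Leaving out 1 array moved the counts of all probe sets and of partners and regulators both up and down. The causes of the changes in counts were not tested.

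None of the differences that turned sign was past the threshold. Without normalization Cyp2c11 was -0.173, Cyp2c12 -0.0047 and Cyp2e1 -0.203. With trimmed mean and spike-in scaling Cyp1a2 was 0.0008 and 0.0656, and Cyp4a1 was 0.0058 and 0.0705. With array brightness as a covariate Cyp2c11 was -0.0262, Cyp2e1 -0.0073 and Cyp3a2 -0.0189. Leaving out 1 array gave -0.125 to 0.0137 for Cyp1a2, -0.111 to 0.768 for Cyp2c12, -0.0187 to 0.0263 for Cyp2e1 and -0.177 to 0.0827 for Cyp4a1.

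The replicate block gave 0 members, 181 of all probe sets, 4 partners and regulators and 0 other P450s. Arrays of the same number had correlations of deviations from -0.10 to 0.19, and 1 of 4 hydrogen water arrays correlated best with its own number, so the numbers were not treated as pairs. Signal over background is unknown without detection calls, which limits dim members.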

Other observations

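Cebpa, a hepatocyte factor that acts on many P450 genes, had 5 tested probe sets, chosen after their values were seen. All 5 had lower means in the hydrogen water group, with differences from -0.57 to -0.36, and 0 passed at an adjusted p of 0.05 (limma). Members lay on 8 chromosomes of GRCr8, with 18 genes on chromosome 1, 8 on chromosome 7 and 7 on chromosome 5.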
